A study of Mus musculus with 9 samples.

Results

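MHC class II presentation genes encode the proteins that load peptides onto class II molecules and show them to CD4+ T cells. The 10 genes described here were chosen by symbol: the surface chains H2-Aa, H2-Ab1, H2-Ea and H2-Eb1, the invariant chain gene Cd74, the peptide-loading genes H2-DMa, H2-DMb2, H2-Oa and H2-Ob, and the regulator Ciita. Of these, 9 had 1 probe set of their own among the 19938 genes tested. H2-DMb2 was read by 1 probe set that the annotation assigns to H2-DMb1 as well, so no value is given for it. H2-Oa, H2-DMa, H2-DMb2, H2-Ob, H2-Ab1, H2-Aa, H2-Eb1 and H2-Ea follow each other in this order on chromosome 17, while Ciita lies on chromosome 16 and Cd74 on chromosome 18.

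RNA was measured on 9 Affymetrix arrays in 3 groups of 3. The first was femur bone marrow of 3 mice transgenic for ERG, killed when signs of leukemia appeared and described by the submitters as carrying a myeloid leukemia. The second was wild type marrow depleted of lineage-positive cells, in which each of 3 arrays held a pool of 3 mice. The third was whole marrow of 3 wild type mice. Every sample is labelled C57BL6, and age, sex, H2 haplotype, the species of the transgene and the promoter driving it are not in the labels. Values are RMA intensities with a median over all probe sets of 33.4, a log2 intensity of 5.06. A signal below that median is dim, and there background limits the size of a difference.

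A class II molecule on the cell surface is a pair of an alpha and a beta chain. H2-A is made from H2-Aa and H2-Ab1, and H2-E from H2-Ea and H2-Eb1. The invariant chain, Cd74, fills the peptide groove until H2-DM exchanges its remnant for a peptide, and H2-O restrains H2-DM, chiefly in B cells. Ciita is the coactivator that the class II promoters need. In marrow the class II pathway is used mainly by B cells, dendritic cells and macrophages. In mice of the H2b haplotype, which C57BL/6 mice carry, H2-Ea has a deletion in its promoter and is not transcribed.

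Ciita acts on class II promoters through a short block of sequence in which the RFX complex binds the X box and the factor NF-Y binds the Y box. Promoters of 4 members, from 250 bases before to 50 after the annotated start, are shown because H2-Aa and H2-Eb1 were called higher in the leukemias than in lineage-negative marrow, and H2-Oa and H2-Ob were not. The sequences are RefSeq's, of GRCm38.p6. They cover chr17:34287774-34288073 on the minus strand for H2-Aa, and on the plus strand chr17:34305617-34305916 for H2-Eb1, chr17:34092129-34092428 for H2-Oa and chr17:34238655-34238954 for H2-Ob. Promoters of 6 members matched the table, H2-DMa with 2 starts, and those of H2-Ab1, H2-Ea and Ciita were not matched, while that of Cd74 was not used here. Capitals mark matches on either strand to the Y box core ATTGG, its longer form CTGATTGG, or an X box pattern that leaves 3 of its bases free.
H2-Aa: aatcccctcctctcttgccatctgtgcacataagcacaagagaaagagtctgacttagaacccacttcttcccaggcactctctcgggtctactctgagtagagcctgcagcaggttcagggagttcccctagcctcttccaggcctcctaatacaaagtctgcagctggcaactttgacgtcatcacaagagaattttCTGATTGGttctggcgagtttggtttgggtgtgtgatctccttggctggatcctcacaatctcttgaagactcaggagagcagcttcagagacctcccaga
H2-Eb1: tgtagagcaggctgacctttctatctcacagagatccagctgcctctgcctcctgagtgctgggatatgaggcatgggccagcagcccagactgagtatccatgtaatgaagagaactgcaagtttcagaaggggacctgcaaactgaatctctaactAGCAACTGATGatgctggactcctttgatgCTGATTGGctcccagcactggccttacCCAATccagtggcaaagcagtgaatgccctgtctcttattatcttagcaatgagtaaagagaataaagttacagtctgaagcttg
H2-Oa: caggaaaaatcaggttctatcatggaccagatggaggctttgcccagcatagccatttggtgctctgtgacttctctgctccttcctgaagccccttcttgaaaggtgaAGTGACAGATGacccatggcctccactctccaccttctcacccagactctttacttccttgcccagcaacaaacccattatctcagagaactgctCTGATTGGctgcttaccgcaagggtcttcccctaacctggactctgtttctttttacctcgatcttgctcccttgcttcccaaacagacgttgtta
H2-Ob: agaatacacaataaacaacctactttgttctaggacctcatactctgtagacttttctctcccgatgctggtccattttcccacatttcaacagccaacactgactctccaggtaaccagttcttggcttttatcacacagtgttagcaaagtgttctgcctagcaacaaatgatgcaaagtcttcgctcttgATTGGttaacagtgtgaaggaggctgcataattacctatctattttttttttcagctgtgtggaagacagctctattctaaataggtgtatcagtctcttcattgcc

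The Y box core ATTGG stood at position -48 in H2-Aa, -59 and, on the other strand, -35 in H2-Eb1, -43 in H2-Oa and -57 in H2-Ob, counted from the annotated start. Its longer form CTGATTGG, which contains the core, was present in H2-Aa, H2-Eb1 and H2-Oa and not in H2-Ob. Among all 32851 promoters of this length, 37.4% held ATTGG and 4.1% held CTGATTGG. The X box pattern matched H2-Eb1 at -92, as agcaactgatg, and H2-Oa at -141, as agtgacagatg, and 0.968% of all promoters held it. The match in H2-Oa lay farther from its Y box core at -43 than the match in H2-Eb1 from its core at -59. Among the members not shown, H2-DMa matched none of the patterns at 1 of its annotated starts and only the Y box core at the other, at -198. H2-DMb2 matched only the core, at -90. A promoter without a match may still hold a box written in other letters. These letter matches describe the sequences and do not show binding.

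Pearson correlations across genes ran from 0.971 to 0.995 between arrays of the same group, and 0.06% to 0.16% of probe sets held identical values in such a pair. Across all genes leukemia 2 correlated with leukemias 1 and 3 at 0.971 and 0.976, and leukemias 1 and 3 with each other at 0.987. Leukemia 2 also stood apart in the class II genes, as the lowest of the 3 leukemias for 7 of 9 members and the highest for H2-Ea. In the wild type groups, pool 2 was the lowest of the lineage-negative pools for 7 of 9 members, and array 2 the lowest of whole marrow for 8 of 9. The mouse gene Erg was read by 1 probe set, with mean log2 intensities of 6.37 (leukemias), 6.80 (lineage-negative marrow) and 7.29 (whole marrow), which says nothing about the transgene since its species is not given.

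Against whole marrow 4 of 9 members fell in the leukemias, namely H2-Ea, Cd74, H2-Ob and Ciita, where 9.93% of all genes were called lower by limma at an adjusted p of 0.05. The share was 24.5% in either direction, and 0 members rose, also at an unadjusted p of 0.05, at which 7 were lower. The median log2 difference over the 9 members was -1.14, beside -0.02 over all genes tested. In whole tissue, fewer cells of a type and less RNA per cell cannot be told apart.

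**Figure D1:**
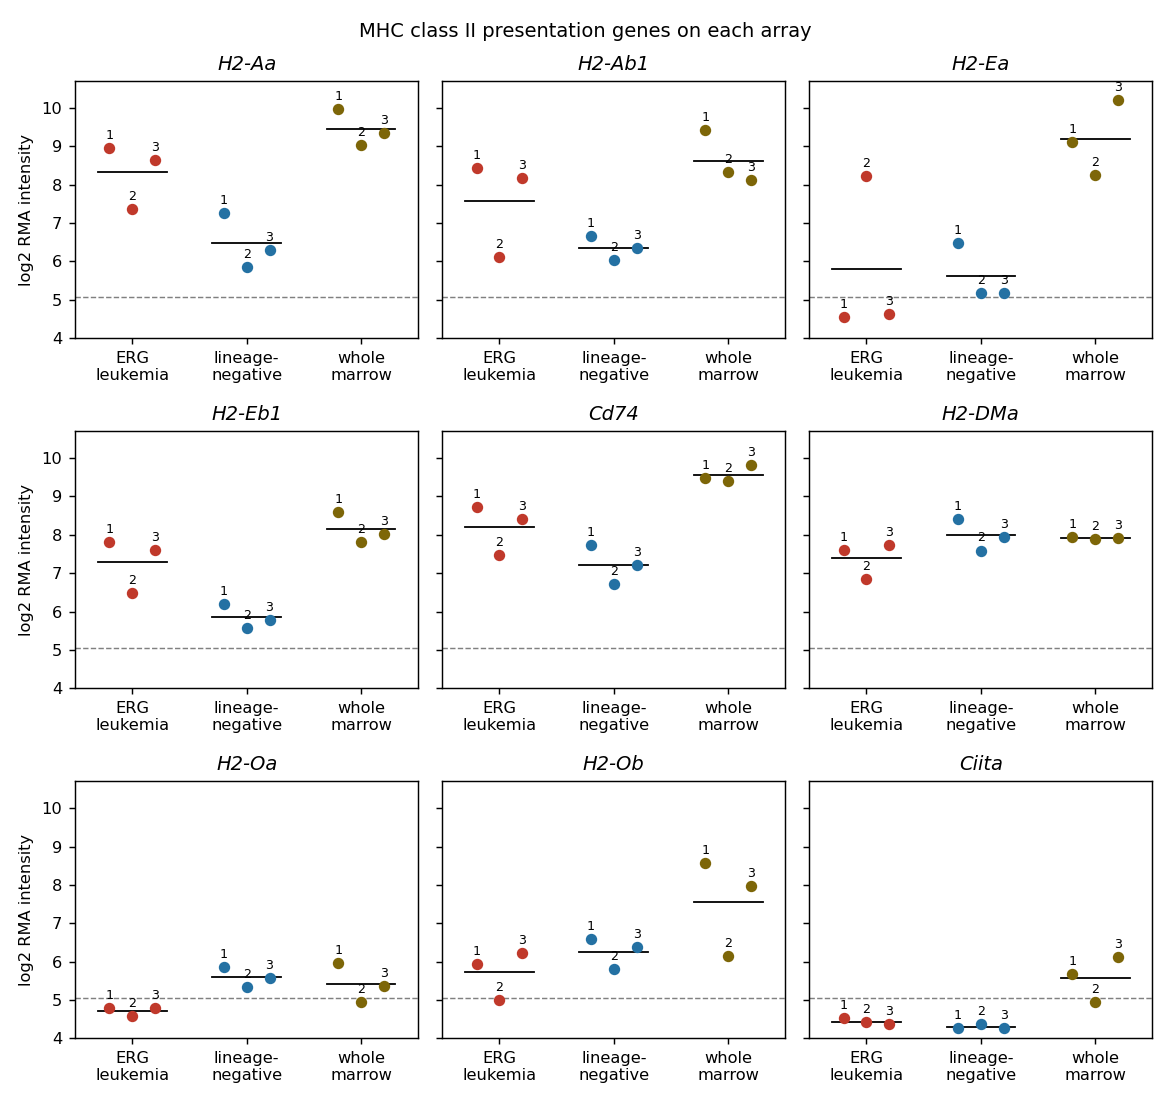
Log2 RMA intensity of 9 class II presentation genes (vertical axis) on each array, with the array's number beside its point, the group mean as a bar and the median of all probe sets, 5.06, as a dashed line. Leukemias are left, lineage-negative pools in the middle and whole marrow right; H2-Ea of leukemia 2 lies at 8.23, beside 4.55 and 4.64 in the other leukemias.

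H2-A, the class II molecule that C57BL/6 mice display, was read by both of its chains. H2-Aa stood at log2 intensities of 8.95, 7.36 and 8.65 in leukemias 1 to 3, 7.26, 5.86 and 6.30 in lineage-negative pools 1 to 3, and 9.98, 9.04 and 9.35 in whole marrow arrays 1 to 3. Each leukemia lay below each whole marrow array and above each pool. The difference from whole marrow was -1.14 ± 0.48 (SE, limma adjusted p = 0.127) and did not pass, while that from lineage-negative marrow was 1.85 ± 0.48 (adjusted p = 0.0494) and passed. Lineage-negative marrow was 7.93-fold below whole marrow (-2.99 ± 0.48, adjusted p = 0.00147). Dropping any single array except leukemia 2 or pool 1 ended the H2-Aa call over lineage-negative marrow, at values from 1.53 to 1.85.

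H2-Ab1, the beta chain of H2-A, stood at 8.43, 6.12 and 8.18 in leukemias 1 to 3, 6.65, 6.04 and 6.35 in lineage-negative pools 1 to 3, and 9.43, 8.32 and 8.12 in whole marrow arrays 1 to 3. Leukemia 2 fell within the range of the pools, and leukemias 1 and 3 within that of whole marrow. The difference from whole marrow was -1.05 ± 0.58 (limma adjusted p = 0.252, 95% interval -2.38 to 0.28) and that from lineage-negative marrow 1.23 ± 0.58 (adjusted p = 0.262). Without leukemia 2 these H2-Ab1 differences were -0.32 (adjusted p = 0.593) and 1.96 (adjusted p = 0.0163), the second passing the threshold only with that array left out among the alternatives run. Lineage-negative marrow was lower than whole marrow by limma (-2.28 ± 0.58, adjusted p = 0.0151), a call lost without pool 2 (-2.13) or whole marrow array 1 (-1.88).

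H2-Eb1, the beta chain of H2-E, ran beside H2-Aa. Its log2 intensities were 7.81, 6.47 and 7.60 in leukemias 1 to 3, 6.20, 5.57 and 5.77 in lineage-negative pools 1 to 3, and 8.59, 7.82 and 8.02 in whole marrow arrays 1 to 3. The groups did not overlap, with the leukemias between the pools and whole marrow, but leukemia 1 (7.81) and whole marrow array 2 (7.82) nearly met. H2-Eb1 was 2.72-fold higher in the leukemias than in lineage-negative marrow (1.45 ± 0.35, limma adjusted p = 0.0403), and the difference from whole marrow, -0.85 ± 0.35, did not pass (adjusted p = 0.122). Lineage-negative marrow was 4.91-fold below whole marrow (adjusted p = 0.00118). The H2-Eb1 call over lineage-negative marrow was lost without leukemia 1 or 3, any 1 pool, or whole marrow array 1 or 3, at values from 1.19 to 1.62.

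H2-Ea, the alpha chain that would pair with H2-Eb1, split the leukemias. It stood at 4.55, 8.23 and 4.64 in leukemias 1 to 3, 6.47, 5.18 and 5.18 in lineage-negative pools 1 to 3, and 9.12, 8.25 and 10.20 in whole marrow arrays 1 to 3. Leukemias 1 and 3 lay below the median of all probe sets, at intensities of 23.5 and 25.0, whereas leukemia 2, at 300.6, came close to whole marrow array 2, at 304.1. All 3 whole marrow arrays thus carried signal of a gene that is silent in the H2b haplotype, in samples labelled C57BL6, and the part of haplotype was not tested.

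By limma H2-Ea was 10.4-fold lower in leukemic than in whole marrow (-3.38 ± 0.96, adjusted p = 0.0328) and 11.9-fold lower in lineage-negative than in whole marrow (-3.58 ± 0.96, adjusted p = 0.0184). The leukemia mean used, a log2 intensity of 5.81, matched no single leukemia, at 4.55, 8.23 and 4.64 in leukemias 1 to 3. Leukemias 1 and 3 were dim, and pools 2 and 3, at 5.18 each, stood near the median of 5.06. Background therefore limits both sizes. Against lineage-negative marrow the leukemias differed by 0.20 ± 0.96 (adjusted p = 0.946, 95% interval -1.98 to 2.38). The H2-Ea call against whole marrow ended when leukemia 1 (-2.75) or leukemia 3 (-2.80), pool 3 (-3.38), or array 1 (-3.41) or array 3 (-2.87) of whole marrow was dropped, and it was -4.59 (adjusted p = 0.00236) without leukemia 2. Without leukemia 2 the difference from lineage-negative marrow was -1.01 (adjusted p = 0.384). The call of lineage-negative against whole marrow was lost without pool 2 or 3 (-3.36 each) or whole marrow array 1 (-3.61) or 3 (-3.07).

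**Figure D2:**
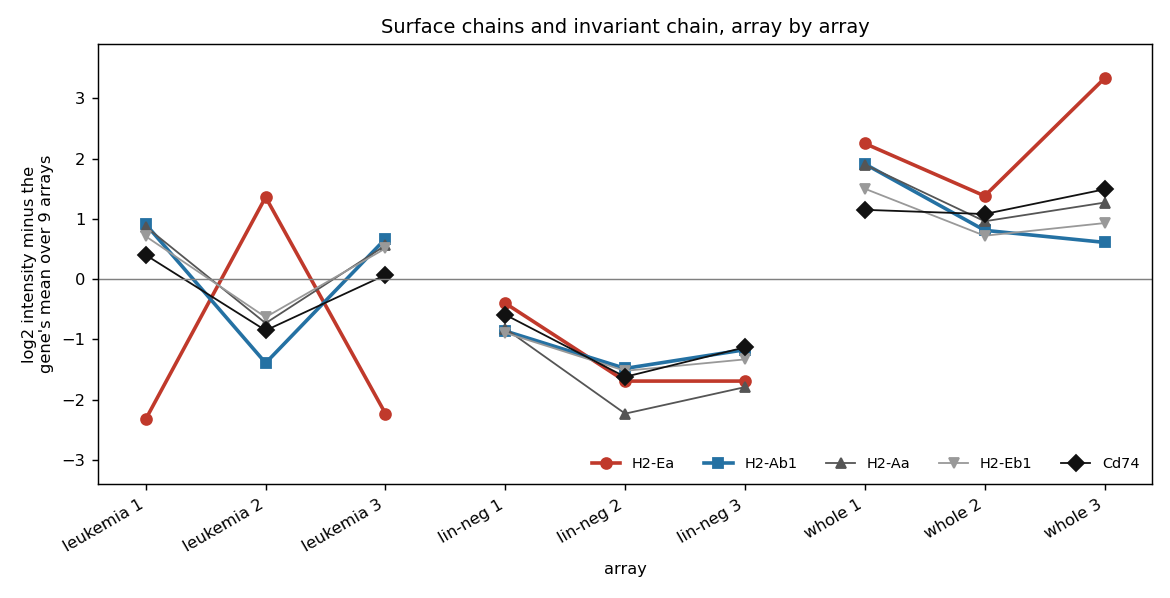
Log2 intensity of H2-Ea, H2-Ab1, H2-Aa, H2-Eb1 and Cd74, each minus its own mean over the 9 arrays (vertical axis), for every array (horizontal axis). In leukemia 2 H2-Ea lies at 1.36 above its mean while the other 4 genes lie below theirs, and in leukemias 1 and 3 H2-Ea lies at -2.32 and -2.23 while the others lie above theirs.

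In the leukemias H2-Ea and H2-Eb1 lay on opposite sides of their own means over the 9 arrays, while both lay above them in whole marrow and below them in the pools. Within an array, the difference between 2 genes can be set against the mean of that difference over the 9 arrays. H2-Ea minus H2-Eb1 stood at -3.03, 1.99 and -2.73 in leukemias 1 to 3, between -0.36 and 0.49 in the pools, and between 0.65 and 2.40 in whole marrow. H2-Eb1 minus Cd74 moved far less, from 0.22 to 0.44 in the leukemias, -0.30 to 0.10 in the pools and -0.57 to 0.35 in whole marrow. H2-Ab1 minus H2-Aa, the 2 chains of H2-A, stood at 0.04, -0.67 and 0.10 in leukemias 1 to 3, -0.04, 0.75 and 0.62 in pools 1 to 3, and 0.01, -0.15 and -0.66 in whole marrow arrays 1 to 3. Leukemia 2 and whole marrow array 3 were thus the lowest of the 9 arrays for H2-Ab1 relative to H2-Aa, and the highest for H2-Ea relative to H2-Eb1. These pairs were chosen after the values were seen and were not tested.

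Cd74, the invariant chain, stood at 8.73, 7.48 and 8.40 in leukemias 1 to 3, 7.74, 6.71 and 7.20 in lineage-negative pools 1 to 3, and 9.48, 9.41 and 9.82 in whole marrow arrays 1 to 3. All leukemias lay below all whole marrow arrays, while leukemia 2 lay within the range of the pools. Leukemic marrow had 2.58-fold less Cd74 signal than whole marrow (-1.37 ± 0.34, limma adjusted p = 0.0198), and -1.01 (adjusted p = 0.0368) without leukemia 2. It no longer passed without whole marrow array 1 (-1.41) or without array 3 (-1.24). Against lineage-negative marrow the Cd74 difference was 0.99 ± 0.34 (adjusted p = 0.121), and 1.35 (adjusted p = 0.0241) without leukemia 2. Lineage-negative marrow was 5.12-fold below whole marrow (-2.36 ± 0.34, adjusted p = 0.000882).

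Ciita, the coactivator of class II promoters, was dim outside whole marrow. Its log2 intensities were 4.53, 4.42 and 4.37 in leukemias 1 to 3, 4.26, 4.38 and 4.27 in lineage-negative pools 1 to 3, and 5.67, 4.95 and 6.13 in whole marrow arrays 1 to 3. Every leukemia and pool lay below the median of all probe sets, as did whole marrow array 2. The leukemias were 2.21-fold below whole marrow (-1.14 ± 0.24, limma adjusted p = 0.0105, 95% interval -1.7 to -0.58). Lineage-negative marrow was 2.43-fold below it (-1.28 ± 0.24, adjusted p = 0.00357, 95% interval -1.84 to -0.72). Background limits these sizes. Both Ciita calls held in each alternative run, with adjusted p from 0.00147 to 0.04 for the leukemias. Between leukemias and lineage-negative marrow the difference was 0.14 ± 0.24 (adjusted p = 0.83). H2-Aa and H2-Eb1 were higher in the leukemias while Ciita was below the median of all probe sets in both groups.

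H2-DMa, the alpha chain of the peptide exchanger, stood at 7.61, 6.84 and 7.73 in leukemias 1 to 3, 8.42, 7.59 and 7.95 in lineage-negative pools 1 to 3, and 7.93, 7.90 and 7.91 in whole marrow arrays 1 to 3. The pools and whole marrow overlapped, and the leukemias lay below all whole marrow arrays. By limma no difference of H2-DMa passed, at -0.52 ± 0.26 against whole marrow (adjusted p = 0.191), -0.59 ± 0.26 against lineage-negative marrow (adjusted p = 0.211) and 0.07 ± 0.26 between the wild type groups (adjusted p = 0.852, 95% interval -0.51 to 0.66). The sign of the difference between the wild type groups turned with 75th percentile centring (-0.08), after cyclic loess (-0.24) and without pool 1 (-0.14).

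H2-Oa and H2-Ob encode the chains of the H2-DM inhibitor. H2-Oa stood at 4.78, 4.59 and 4.79 in leukemias 1 to 3, 5.87, 5.33 and 5.58 in pools 1 to 3, and 5.96, 4.94 and 5.37 in whole marrow arrays 1 to 3. Each leukemia was below each array of the other groups and below the median of all probe sets. The differences of H2-Oa, -0.70 ± 0.24 against whole marrow (limma adjusted p = 0.0651) and -0.87 ± 0.24 against lineage-negative marrow (adjusted p = 0.059), did not pass. The first passed without whole marrow array 2 (-0.95), and the second without whole marrow array 1 or 2 (-0.87 each). Between the wild type groups H2-Oa differed by 0.17 ± 0.24 (adjusted p = 0.638).

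H2-Ob stood at 5.94, 5.0 and 6.23 in leukemias 1 to 3, 6.58, 5.81 and 6.39 in pools 1 to 3, and 8.57, 6.15 and 7.96 in whole marrow arrays 1 to 3. Whole marrow array 2 lay below leukemia 3, so those groups overlapped. Leukemic marrow had 3.58-fold less H2-Ob signal than whole marrow (-1.84 ± 0.58, limma adjusted p = 0.0495), and dropping any single array except whole marrow array 2 ended the call, at values from -2.09 to -1.33. Lineage-negative against whole marrow gave -1.30 ± 0.58 (adjusted p = 0.122), which passed without whole marrow array 2 (-2.01, adjusted p = 0.00682). Leukemias and lineage-negative marrow differed by -0.54 ± 0.58 (adjusted p = 0.694).

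**Figure D3:**
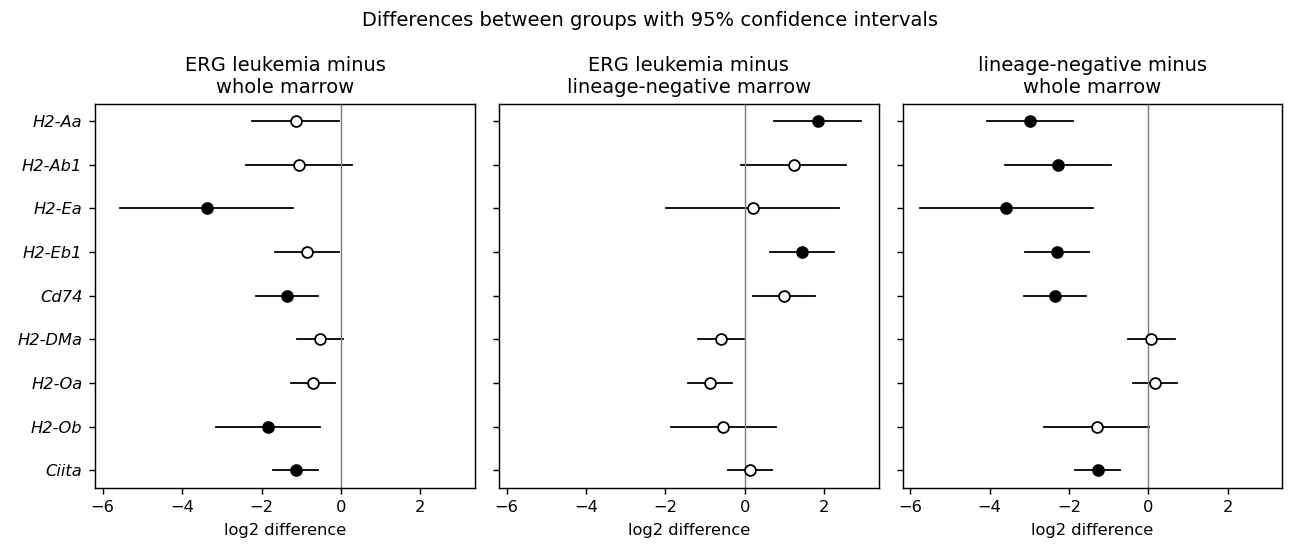
Log2 difference between groups (horizontal axis) for 9 class II genes, with 95% confidence intervals of the limma fit; filled points passed an adjusted p of 0.05. Against whole marrow H2-Ea, Cd74, H2-Ob and Ciita are filled, against lineage-negative marrow H2-Aa and H2-Eb1, and between the wild type groups 6 genes.

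Counted over the members, 7 of 9 had all leukemias below all whole marrow arrays and 0 had them all above, where 17.7% of all genes had all leukemias below and 37.1% did not overlap in either direction. Some margins were narrow. The nearest leukemia and whole marrow arrays stood at log2 intensities of 7.81 and 7.82 for H2-Eb1, and 8.23 and 8.25 for H2-Ea. For H2-Oa they stood at 4.79 and 4.94, both below the median of all probe sets. Against lineage-negative marrow 2 of 9 rose, with 2.95% of all genes called higher, and 0 fell (2 at an unadjusted p of 0.05), with 5.74% of all genes called lower. In 2 members all leukemias lay above all pools (11.6% of all genes) and in 1, H2-Oa, below (16.3%). The median over the members was 0.20, beside 0.01 over all genes. Without leukemia 2 there were 4 that rose, with H2-Ab1 and Cd74 added. The count was 0 without leukemia 1 or 3, pool 2 or 3 or whole marrow array 1 or 3, and 1 without pool 1 or whole marrow array 2, and 1 member, H2-Oa, was lower without whole marrow array 1 or 2. Lineage-negative against whole marrow had 6 of 9 members lower, with 13.0% of all genes called lower and 34.7% called in either direction, and 0 higher, also at an unadjusted p of 0.05. All pools lay below all whole marrow arrays in 6 of 9 members and above in 0, where 23.4% and 26.6% of all genes did so. The median there was -2.28, beside -0.03 over all genes. These comparisons share arrays, so their values are set side by side only. Leukemias against whole marrow gave 2 lower members without leukemia 1 or 3 or pool 3, and 1, Ciita, without whole marrow array 1 or 3.

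Partners of the pathway were taken from a list of 21 genes, of which 20 were measured. Against whole marrow 2 rose and 5 fell in the leukemias, with a median of -0.05, where 14.6% of all genes were called higher and 9.93% lower. Marchf8, a membrane ubiquitin ligase, rose by 1.58 ± 0.17 (limma adjusted p = 0.000875), and the costimulatory receptor Cd40 changed by -1.03 ± 0.15 (adjusted p = 0.0024). The other falls were those of the costimulatory ligands Cd80 (-0.90) and Cd86 (-0.96), of Creb1 (-0.55), a factor of the class II promoter, and of Ctsd (-0.36), a lysosomal protease. Rfxap, a subunit of the RFX complex, rose by 0.52 (adjusted p = 0.033), and the other subunits Rfx5 and Rfxank stood at 0.01 and -0.03 and did not pass. The count of rises was 1 without leukemia 3, pool 3 or any 1 whole marrow array.

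Against lineage-negative marrow 7 partners rose and 0 fell (2 at an unadjusted p of 0.05), with a median of 0.37. In that comparison 2.95% of all genes were called higher and 5.74% lower. Lysosomal proteases led: Lgmn, the asparaginyl endopeptidase, rose by 2.40 ± 0.23 (limma adjusted p = 0.00107) and Ctss, which trims the invariant chain, by 2.28 ± 0.42 (adjusted p = 0.0148). Without pool 2 or whole marrow array 2, 1 partner fell. Ctss stood at 9.15, 7.87 and 9.61 in leukemias 1 to 3, 7.01, 6.09 and 6.68 in pools 1 to 3, and 8.71, 9.33 and 8.80 in whole marrow arrays 1 to 3. Lineage-negative marrow had 10 partners lower and 3 higher than whole marrow, led by Ctss (-2.35 ± 0.42, limma adjusted p = 0.00266) and Cd80 (-2.13 ± 0.19). Between these groups 13.0% of all genes were called lower and 21.7% higher. The count of higher partners was 1 without whole marrow array 1 or 2.

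Genes taken as regulators of Ciita formed a list of 16, with 15 measured, and their action on Ciita was not tested. In the leukemias 7 fell and 1 rose against whole marrow, with a median of -1.0, where 9.93% of all genes were called lower and 14.6% higher. Ebf1, which sets B cell identity, changed by -3.83 ± 0.54 (limma adjusted p = 0.00194) and Spib, an ETS factor of B cells and plasmacytoid dendritic cells, by -2.80 ± 0.57 (adjusted p = 0.00847), while Bcl11a rose by 0.96. Lineage-negative marrow had 8 lower and 1, Bcl11a (1.32), higher than whole marrow, with Ebf1 at -3.95 ± 0.54 and Spib at -3.66 ± 0.57. The shares of all genes there were 13.0% lower and 21.7% higher. Between leukemias and lineage-negative marrow 0 of 15 differed by limma, also at an unadjusted p of 0.05, and 1 was higher without leukemia 2. In that comparison 8.69% of all genes were called in either direction. Ebf1, Pax5 and Spib are also B cell markers.

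**Figure D4:**
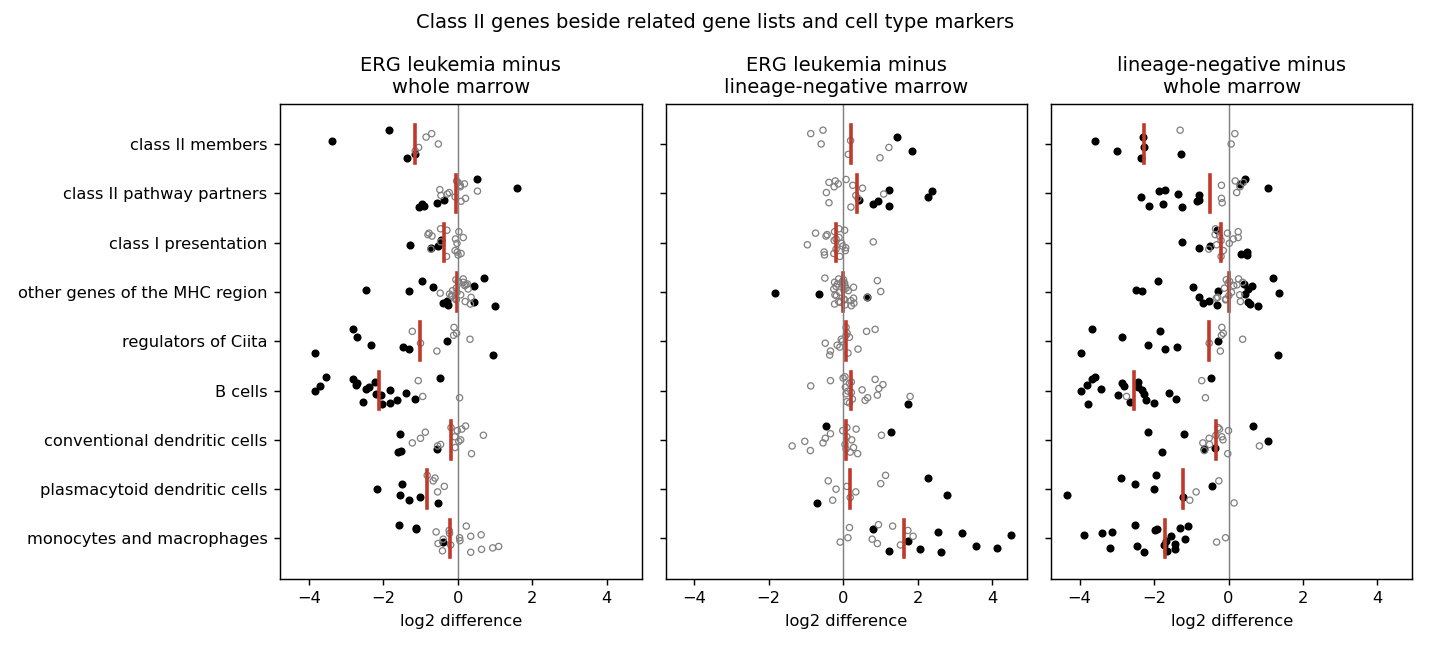
Log2 difference (horizontal axis) of every measured gene of 9 lists in 3 comparisons; filled points passed an adjusted p of 0.05 and red bars are list medians. B cell markers lie lowest against whole marrow, with a median of -2.12 in the leukemias, and monocyte and macrophage markers lie highest over lineage-negative marrow, with a median of 1.63.

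Class I presentation, which shows peptides from inside the cell to CD8+ T cells, had 20 of 28 listed genes measured. The 8 others were H2-K1, H2-D1, H2-Q1, H2-Q6, H2-Q7, H2-T3, H2-T22 and H2-T23, so the chains of H2-K and H2-D were not read. In the leukemias 4 fell and 0 rose against whole marrow (9 and 0 at an unadjusted p of 0.05), with a median of -0.37. The shares of all genes were 9.93% called lower and 14.6% called higher. H2-Q4 changed by -1.28 ± 0.31 (limma adjusted p = 0.0167) and H2-Q10 by -0.72 ± 0.16 (adjusted p = 0.0109). The other falls were those of H2-Q2 (-0.52) and of Nlrc5 (-0.44), the relative of Ciita that acts on class I promoters. Without whole marrow array 1 the count was 1 and H2-Q4 was lost (-1.24), without whole marrow array 3 it was 2, and without leukemia 3 it was 7. It was 9 with 75th percentile centring and 8 after cyclic loess. Against lineage-negative marrow 0 of 20 passed (5 lower and 0 higher at an unadjusted p of 0.05), and 1 was lower without leukemia 3 or whole marrow array 2 or 3. In that comparison 8.69% of all genes were called in either direction.

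Between the wild type groups 3 of 20 class I genes were higher in lineage-negative marrow, where 21.7% of all genes were called higher. These were the chaperones Calr (0.50) and Canx (0.34) and the peptide trimmer Erap1 (0.50). Another 4 were lower, beside 13.0% of all genes. H2-T24 changed by -1.26 ± 0.39 (limma adjusted p = 0.0331), a call lost when any 1 wild type array was left out, and H2-Q10 by -0.80 ± 0.16. The higher count was 1 without pool 1 or 3 or whole marrow array 1, and the lower count 2 without any 1 pool or whole marrow array 1. H2-T24 stood at 7.16, 8.99 and 7.77 in leukemias 1 to 3, 7.24, 7.04 and 7.22 in pools 1 to 3, and 8.69, 8.16 and 8.44 in whole marrow arrays 1 to 3. As with H2-Ea, leukemia 2 was the highest leukemia and whole marrow stood above the pools. Unlike H2-Ea, H2-T24 in leukemia 2 lay above every whole marrow array. The likeness was seen in the values and was not tested.

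Other genes of the MHC region, which share the neighbourhood and not the function, had 34 of 37 measured. In the leukemias 4 rose and 7 fell against whole marrow, where 14.6% of all genes were called higher and 9.93% lower, with a median of -0.03. Ltb, a lymphotoxin chain of lymphocytes, was 5.5-fold lower (-2.46 ± 0.27, limma adjusted p = 0.000894), and Lst1 changed by -1.31 ± 0.27. The genes that rose were Abhd16a (1.01), Wdr46 (0.70), Bag6 (0.44) and Ring1 (0.43). The count of falls was 4 without leukemia 1 or 3 and 3 without leukemia 2 or whole marrow array 2. Against lineage-negative marrow 1 rose, Clic1 (0.64), and 2 fell, Hspa1a (-1.83 ± 0.40), a heat shock gene, and Ddah2 (-0.65 ± 0.10). The shares of all genes there were 2.95% higher and 5.74% lower. The Hspa1a call was lost without leukemia 1 or 3 or pool 1 or 2, at -1.82 to -1.46. The count of falls was 1 without leukemia 3 or pool 1 or 2. The rise was 0 without leukemia 3 or pool 2 or 3, 3 without leukemia 2 and 2 without whole marrow array 3. Lineage-negative marrow had 9 of 34 higher and 9 lower than whole marrow, where 21.7% of all genes were called higher and 13.0% lower, with Ltb at -2.48 ± 0.27 and Lst1 at -2.32 ± 0.27.

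Markers of B cells, dendritic cells, monocytes and macrophages are given beside these genes, and their part in the class II differences was not tested. Of 22 measured B cell markers 19 fell and 0 rose in the leukemias against whole marrow (20 and 0 at an unadjusted p of 0.05), led by Ebf1 and Igll1 (-3.69 ± 0.44, limma adjusted p = 0.00113). The shares of all genes were 9.93% called lower and 14.6% called higher. The B cell markers' summed intensity ran from 1757 to 2561 in the leukemias, 1207 to 1585 in the pools and 3555 to 11475 in whole marrow. In whole marrow array 2 this sum was the lowest of its group, as were 8 of 9 class II genes. Of the B cell markers 9 had a leukemia mean below the median of all probe sets, 15 had a pool mean below it and 0 a whole marrow mean. Lineage-negative marrow was lower than whole marrow in 19 B cell markers, with Ms4a1, the gene of CD20, at -3.80 ± 0.59. Between these groups 13.0% of all genes were called lower. Bank1, a B cell scaffold gene, was higher in the leukemias than in lineage-negative marrow (1.73 ± 0.42, adjusted p = 0.0379) as the only B cell marker called in that comparison, a call lost without leukemia 1 or 3, any 1 pool or whole marrow array 1 (1.48 to 1.82). There were 2 such markers without leukemia 2 and 5 without whole marrow array 2. With all arrays, 2.95% of all genes were called higher in the leukemias than in lineage-negative marrow.

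Of 20 measured monocyte and macrophage markers, 10 rose and 0 fell in the leukemias against lineage-negative marrow (15 and 0 at an unadjusted p of 0.05), where 2.95% of all genes were called higher. Among them were C1qb, a complement gene of macrophages, at 4.14 ± 0.54 (limma adjusted p = 0.00375), and the Fc receptor gene Fcgr4, at 4.50 ± 0.95 (adjusted p = 0.0243). The pool means of both lay below the median of all probe sets, so background limits these sizes. The Fcgr4 call was lost without leukemia 1 or 3 or any 1 pool, at 3.73 to 4.55. The markers' summed intensity was 10619, 5591 and 11328 in leukemias 1 to 3, 2993, 1556 and 2232 in pools 1 to 3, and 11073, 11080 and 9318 in whole marrow arrays 1 to 3. Leukemia 2 was the lowest leukemia for this sum, as for H2-Aa, H2-Ab1, H2-Eb1 and Cd74. Bright genes weigh most in the sum, above all Lyz2, at log2 intensities of 11.90, 11.47 and 11.86 in leukemias 1 to 3. Of the 20 markers 1 had a leukemia mean below the median of all probe sets, 12 a pool mean and 1 a whole marrow mean. The count of rises was 6 without pool 1 or 3.

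Against whole marrow 4 monocyte and macrophage markers fell in the leukemias and 0 rose (5 and 0 at an unadjusted p of 0.05), with Vcam1 at -1.57 ± 0.28, the iron exporter Slc40a1 at -1.13 ± 0.20, Mrc1 at -1.11 and Cd163 at -0.40, and 6 rose without leukemia 2. Cd163 lay below the median of all probe sets on every leukemia and whole marrow array. The shares of all genes were 9.93% called lower and 14.6% called higher. Lineage-negative marrow was lower than whole marrow in 18 of 20, with Fcgr4 at -3.87 ± 0.95 and the heme oxygenase gene Hmox1 at -3.41 ± 0.18, and in 11 without pool 2 or whole marrow array 2. Between these groups 13.0% of all genes were called lower.

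**Figure D5:**
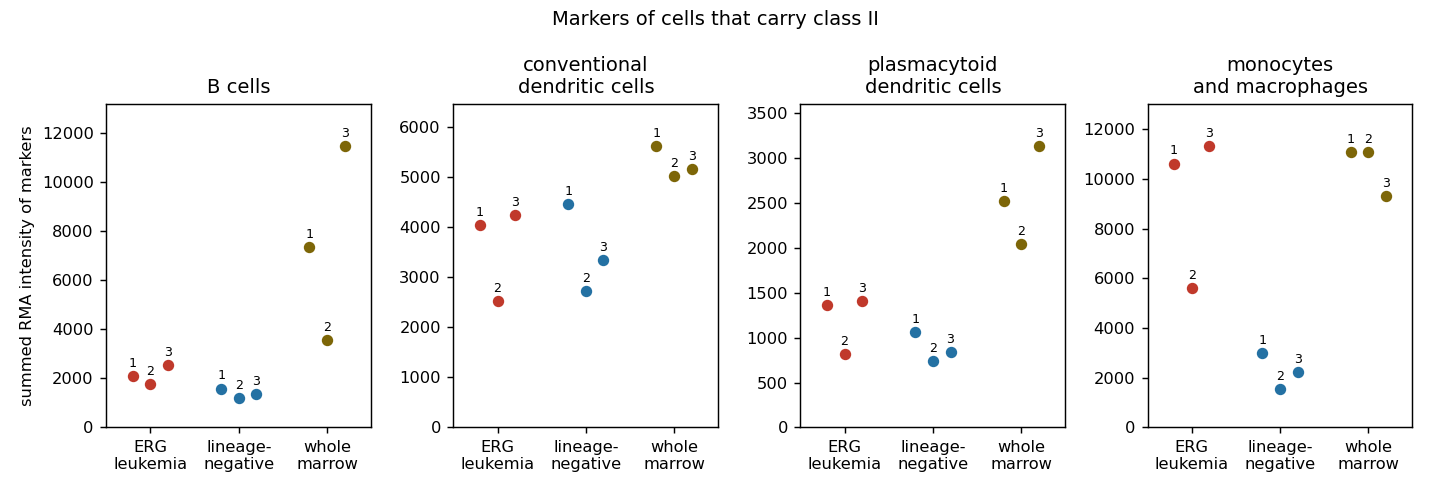
Summed RMA intensity (vertical axis, from 0) of 22 B cell, 19 conventional dendritic cell, 11 plasmacytoid dendritic cell and 20 monocyte and macrophage markers on each array, numbered by array. Leukemia 2 is the lowest leukemia in each panel, and whole marrow array 2 has the lowest B cell sum of whole marrow at 3555.

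Of 19 conventional dendritic cell markers 4 fell in the leukemias against whole marrow and 0 rose (6 and 1 at an unadjusted p of 0.05), with the chemokine receptor Ccr7 at -1.60 ± 0.43 (limma adjusted p = 0.0266) and the lectin Mgl2 at -1.54 ± 0.29, beside Cd209a (-1.53) and Clec10a (-0.57). The shares of all genes were 9.93% called lower and 14.6% called higher. The Ccr7 call was lost without any 1 leukemia or without whole marrow array 1 or 3, at -1.65 to -1.12. There were 2 falls without whole marrow array 1 or 3, and 2 rises without leukemia 2. The summed intensity was 2524 to 4233 in the leukemias, 2720 to 4449 in the pools and 5022 to 5617 in whole marrow. Bright genes weigh most in this sum, above all Cst3, at log2 intensities of 10.60 to 11.35 in the leukemias and 11.30 to 11.66 in whole marrow. Of the 19 markers 9 had a leukemia mean below the median of all probe sets, 9 a pool mean and 8 a whole marrow mean. Against lineage-negative marrow Sirpa was higher (1.28 ± 0.30) and Zbtb46, the factor that marks conventional dendritic cells, lower (-0.45 ± 0.11). In that comparison 2.95% of all genes were called higher and 5.74% lower. Sirpa was lost without leukemia 1 or 3, pool 2 or 3 or whole marrow array 1 (1.05 to 1.29), Zbtb46 without leukemia 2 or 3, pool 2 or 3 or whole marrow array 1 or 3 (-0.46 to -0.39), and 4 markers were higher without leukemia 2. The lower count was 3 without leukemia 1 or pool 2. Lineage-negative marrow had 2 higher, Flt3 (1.06) and Zbtb46 (0.66), and 5 lower than whole marrow, with Sirpa at -2.15 ± 0.30 and Ccr7 at -1.79 ± 0.43, and 1 higher without pool 1 or 3 or whole marrow array 2 or 3. Between these groups 21.7% of all genes were called higher and 13.0% lower.

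Of 11 plasmacytoid dendritic cell markers 6 fell in the leukemias against whole marrow and 0 rose (8 and 0 at an unadjusted p of 0.05). By the same call 9.93% of all genes were lower and 14.6% higher. Ly6d changed by -2.18 ± 0.53 (limma adjusted p = 0.017) and Klra17 by -1.54 ± 0.36. The count was 2 without leukemia 1 or whole marrow array 3 and 3 without leukemia 2, and the Ly6d call ended when leukemia 1 (-1.96) or whole marrow array 3 (-2.03) was dropped. Their summed intensity was 820 to 1403 in the leukemias, 742 to 1066 in the pools and 2044 to 3137 in whole marrow. Against lineage-negative marrow 2 rose, Klra17 (2.79 ± 0.36) and the RNA sensor Tlr7 (2.28 ± 0.24), and Bst2 fell (-0.69), which it did not without leukemia 1 or 2 or pool 1 or 2, while 4 rose without leukemia 2. In that comparison 2.95% of all genes were called higher and 5.74% lower. Lineage-negative marrow was lower than whole marrow in 7, with Klra17 at -4.33 ± 0.36 and Tlr7 at -2.89 ± 0.24. Between these groups 13.0% of all genes were called lower.

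The genes whose pattern over the 9 arrays was most like that of 4 members were found by the root mean square difference of log2 profiles, each centred on its own mean. Cd74 was matched most closely by Pik3c2a (0.14), Cytip (0.16), Ptprc, Rap1gap2 and Cers6 (0.21 each), where Cd74 itself spread by 1.05 about its mean. Ptprc encodes CD45, the surface phosphatase of all white blood cells, and stood at 9.66, 8.37 and 9.80 in leukemias 1 to 3. H2-Ab1, with a spread of 1.16, was nearest to Map3k8 (0.31), Dram1 (0.32), H2-Eb1 (0.33), Ap1s2 (0.36) and Milr1 (0.37). Ciita, with a spread of 0.64, was nearest to Grap (0.12), Sdc4 (0.13), Klhl14, Snn and Cd40 (0.15 each). Its neighbours thus included Cd40, a receptor of B cells and other antigen-presenting cells.

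No gene came close to H2-Ea, which spread by 2.00 about its mean. The nearest were Vpreb3 (1.02), Ebf1 and Ltb (1.04 each), Pax5 (1.09) and Igll1 (1.11), all genes of lymphoid cells. They shared with H2-Ea the high signal in whole marrow and parted from it in leukemia 2. There Vpreb3 stood at 4.82, Ebf1 at 4.65, Pax5 at 4.79 and Igll1 at 4.52, all below the median of all probe sets, and Ltb at 5.61, beside 8.23 for H2-Ea. Vpreb3, Ebf1, Pax5 and Igll1 were below that median in leukemias 1 and 3 as well.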

How the data were processed

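RNA was measured on 9 arrays in 3 groups, taken from the submitters' titles and source names. The authors deposited linear intensity values; RMA and Partek are named in the submitters' processing notes without a version. Values were log2-transformed here and not normalized further. Of 28853 probe sets, 21789 had 1 gene symbol, 1621 several and 5443 none, and a gene with more than 1 probe set was represented by its brightest on average. All comparisons came from 1 limma 3.58.1 fit (R 4.3.3; lmFit, contrasts.fit, eBayes; two-sided) over the 19938 genes and 9 arrays, with Benjamini-Hochberg adjustment over all genes and a threshold of 0.05. The fit was run on simulated data with 200 of 19938 genes changed. Far more genes were called in each comparison here, so that run is no check at this scale. Alternatives were other centring, fewer groups or genes, another eBayes setting, a replicate block and each array left out.

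The members, lists and alternatives were chosen with earlier results of these data known. Named genes were all members, the 2 largest called changes of each list and the 5 nearest patterns of 4 members. Further genes behind counts of 5 or fewer were named after their values were seen. Of 181 listed entries 161 were measured. Each leukemia or whole marrow array is 1 mouse and each pool is 3 by the design text, although the titles of leukemias 1 and 2 differ only by a final digit, so the spread shared by the groups is not that between mice alone. No dates or batches are given, and 3 arrays per group limit the precision. Promoter sequences are RefSeq's. Figures used matplotlib 3.10.9 in Python 3.11.15.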

Additional observations from a re-analysis of the deposited data

How the results depend on the processing

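Counts of class II members called depended on the settings. Against whole marrow 4 members were lower in the leukemias, 7 with each array centred on the 75th percentile of its genes, with H2-Aa, H2-Eb1 and H2-Oa added, and 2 with only the 2 groups compared. Leaving out 1 array gave 1 to 5. Against lineage-negative marrow the 2 higher members became 0 with only the 2 groups compared and 0 to 4 when 1 array was left out. There 1 member, H2-Oa, was lower with 75th percentile centring, with only the 2 groups compared, with trend and robust eBayes and among genes above the median intensity, and 0 to 1 when 1 array was left out. Between the wild type groups 6 members were lower, 4 to 7 when 1 array was left out.

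By the design the numbers in the titles pair no samples, since no mouse gave marrow to both wild type groups. Same-numbered wild type arrays deviated together at correlations of 0.31, -0.01 and -0.01, and differently numbered ones at -0.20 to 0.15. With a replicate block 7 members were lower, H2-Ob being added (-1.30, limma adjusted p = 0.0381).

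Signs turned for 3 results that were not called. H2-Ea in leukemias against lineage-negative marrow was -1.01 without leukemia 2 and -0.02 without pool 2 or 3, in a range of -1.01 to 0.82 over single arrays left out. Between the wild type groups H2-DMa was -0.08 with 75th percentile centring, -0.24 after cyclic loess and -0.14 without pool 1, in a range of -0.14 to 0.27 over single arrays left out, and H2-Oa was -0.07 without whole marrow array 2, in a range of -0.07 to 0.44. The causes were not tested.

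Centring on the 75th percentile moved the median of all genes from -0.02 to -0.13 for leukemia against whole marrow and from -0.03 to -0.19 between the wild type groups. Higher calls made up 59.4% of all calls for leukemia against whole marrow, 44.7% with that centring and 45.5% after cyclic loess. They made up 34.0% against lineage-negative marrow, 46.8% and 49.5% there, and 62.6%, 44.7% and 47.7% between the wild type groups. The class I count against whole marrow was 7 among genes above the median intensity. In the other lists, 75th percentile centring gave 2 rises in place of 4 among other MHC region genes in leukemia against whole marrow. Dim members, Ciita and H2-Oa, have limited sizes, as does H2-Ea, which was dim in leukemias 1 and 3. The same holds for listed genes in comparisons with a group mean below the median of all probe sets, among them Ebf1, Igll1, Ms4a1, Fcgr4, C1qb, Hmox1, Klra17, Tlr7, Mgl2, Clec10a, Cd163 and H2-Q10.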
